A study of Danio rerio with 6 samples.

Results

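The zebrafish intestine moves sodium, chloride, bicarbonate, phosphate and potassium across its lining with a set of pumps, exchangers and channels, and the transcripts of these genes were compared between short bowel syndrome (SBS) and sham-operated fish. A gene was included when its name began with the symbol of an slc4, slc8, slc9, slc12, slc20, slc26 or slc34 carrier, of a sodium pump subunit (atp1a or atp1b), of a potassium channel (kcn) or of a ClC protein (clcn), or when it was cftr. This rule, which used no expression value, found 87 of the 12398 genes in the deposited count table, and 86 of them held enough reads to be tested. All fish were adult male wild-type Ekk zebrafish. SBS fish had a laparotomy with removal of the mid-intestine, a proximal stoma at the junction of the first and second intestinal segments and ligation of the distal intestine, and in sham fish the abdomen was opened but the bowel was left as it was. The first segment was taken whole at 2 weeks after surgery and its RNA was sequenced from 3 fish per group, chosen by the study for their high RNA concentration. The count columns given for SBS replicates 1 and 2 held the same count in all 12488 rows and were counted as 1 sample. The paper lists different numbers of mapped reads for these replicates, and to which of them the shared counts belong is not known. This leaves 2 SBS libraries (named here replicates 1 and 3) against 3 sham libraries.

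In the absorptive epithelium the Na+/K+-ATPase on the basolateral membrane exports sodium and so maintains the gradient on which most carriers of the apical membrane draw. Sodium enters through sodium/proton exchangers and nutrient or phosphate cotransporters, chloride is exchanged for bicarbonate by slc26 and slc4 proteins, and chloride is secreted through CFTR after entry through the sodium-potassium-chloride cotransporter. Potassium channels recycle the potassium that the pump brings in and set the membrane voltage, in the epithelium as well as in muscle and nerve.

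Reads counted on genes numbered 20377652 and 38867364 in the SBS libraries and between 38728394 and 47142289 in the sham libraries, and every count of SBS replicate 1 is even. The 10 most abundant genes took 9.77% and 12.1% of the reads in SBS, against 18.3% to 22.3% in sham. Some lists of marker genes for cell types differed between the groups. In others most genes overlapped, as for 8 of 8 exocrine pancreas, 11 of 14 neuron and glia and 5 of 6 neutrophil genes. Of 8 enterocyte markers measured, 0 passed the quasi-likelihood test (6 had an unadjusted p under 0.05, all lower). The likelihood ratio test and DESeq2 each passed 6, and RUVg 5. Yet all 8 lay lower in both SBS libraries than in every sham library, where 24.3% of all genes tested did so. Their summed level was 5787 and 16772 CPM (the count over its library's TMM-scaled depth) in SBS, against 42485 to 97252 CPM in sham. Of 14 hepatocyte markers, 12 rose in SBS, and their sum was 17301 and 3307 CPM in SBS, against 98.4 to 228 CPM in sham. The neutrophil list summed to 1334 and 11323 CPM in SBS, against 147 to 278 CPM in sham, with 1 of 6 genes, mpx, called higher. Most of the sum in SBS replicate 3 was mpx, and the other 5 genes summed to 1048 and 224 CPM in SBS, against 139 to 274 CPM in sham. The median log2 ratio of this list to the sham mean was 4.72 in SBS replicate 1, and it was 0.31 in SBS replicate 3. A difference in bulk RNA cannot tell fewer cells of a type from less RNA per cell. The part of these cell types in the results below was not tested. No expression marker checks the surgery itself, so that the group labels rest on the records of the study.

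Among the 86 ion transport genes, 1 rose and 3 fell in SBS (edgeR's quasi-likelihood test, Benjamini-Hochberg adjusted p under 0.05 over all 12381 genes tested, and a log2 fold change past 1.5 in size). Of all genes tested, 2.49% were called higher and 2.06% lower, so the share called among the ion transport genes was close to the background. The gene that rose was slc26a5, and the genes that fell were slc34a2a, slc9a3r1 and atp1a1a.2. At an unadjusted p under 0.05, 12 ion transport genes were higher and 19 lower, where the background was 15.7% higher and 13.1% lower. For 13 of the genes both SBS values exceeded every sham value, and for 29 both were under every sham value, where 22.6% and 24.3% of all genes did so, and for 44 the groups overlapped. The median log2 fold change was -0.24 over the ion transport genes and 0.00 over all genes. Leaving out sham replicate 3 turned the first median to 0.21. Other tests called more: edgeR's likelihood ratio test called 6 higher and 10 lower (background 9.81% and 5.78%), DESeq2's Wald test 7 and 9 (9.69% and 5.89%), and RUVg with 1 factor, the family of method the study used to remove unwanted variation, 6 and 12 (7.76% and 5.88%). Without sham replicate 1, 2 or 3 the quasi-likelihood test called 0 of all genes and 0 ion transport genes, of which 16, 20 and 21 then had an unadjusted p under 0.05. With SBS replicate 1 left out it called 2 higher and 3 lower (background 2.69% and 1.86%), and with SBS replicate 3 left out 9 and 12 (10.5% and 8.35%). With all 6 columns as deposited, in which 1 sample counts as 2, 6 were higher and 11 lower (9.54% and 6.07%).

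**Figure D1:**
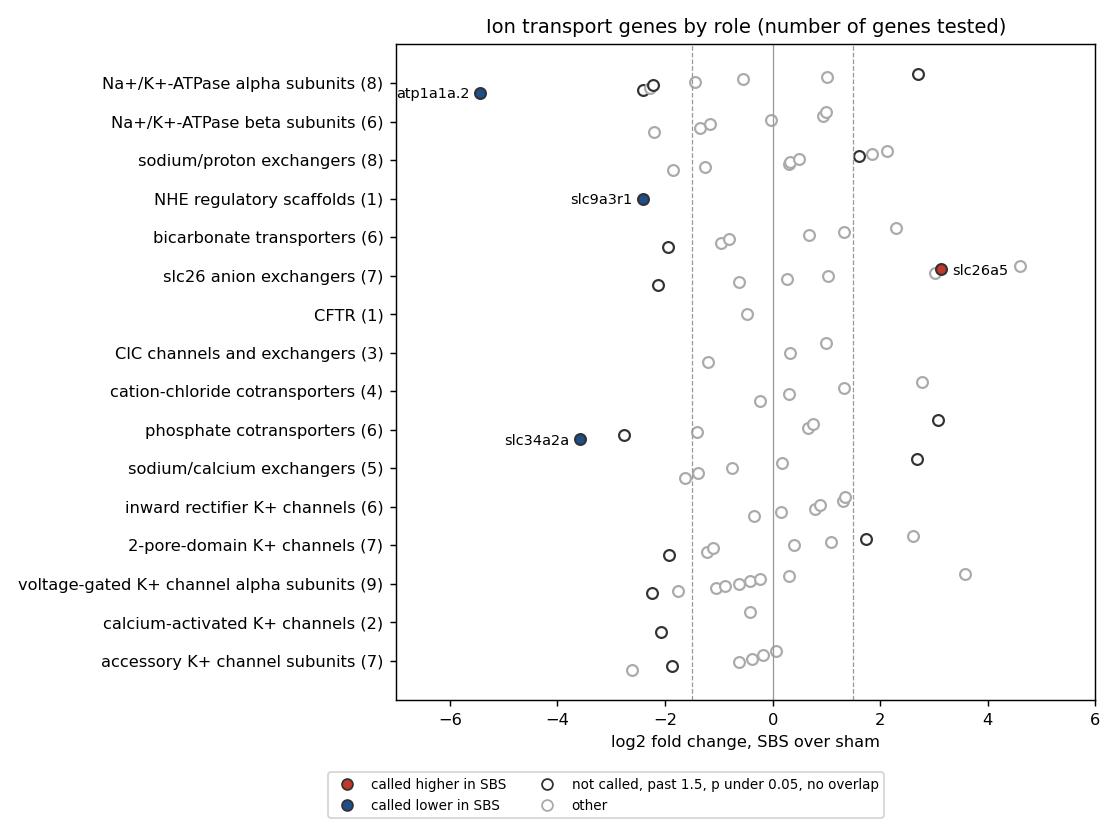
Log2 fold change of SBS over sham (horizontal axis) of the ion transport genes tested, one point per gene, in rows by role with the number of genes tested in parentheses. Filled points passed the test, dark rings had a log2 fold change past 1.5 in size, an unadjusted p under 0.05 and no overlap between groups, dashed lines mark -1.5 and 1.5, and kcnmb2, which had 0 reads in SBS, is not drawn. The 4 called genes lie in the pump, scaffold, slc26 and phosphate rows, and no potassium channel row holds a filled point.

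Levels were compared between genes per length, as CPM divided by the gene length in kilobases (RPKM). Of the 15 ion transport genes whose 2 group means averaged at least 10 RPKM, both SBS libraries lay below all sham libraries for 11 and above all of them for 2 (73.3% and 13.3%). Among all 4822 genes of that level, 32.1% lay below and 22.1% above. For the 29 genes between 1 and 10 RPKM the counts were 6 below and 9 above, where 21.5% and 22.3% of all genes of that level did so. For the 42 genes under 1 RPKM they were 12 below and 2 above, where the shares over all genes were 13.8% and 24.4%, and 4 of these 12 had passed the minimum of 10 reads through sham only. In order of the mean over both groups, the most abundant were atp1b1a, slc34a2a, atp1a1a.4 and atp1a1a.1, all lower in SBS than in any sham library, of which slc34a2a passed the test.

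The sodium pump genes had the highest summed level per length. The pump is a pair of a catalytic alpha subunit and a beta subunit that brings it to the membrane, and zebrafish hold a tandem row of alpha copies (atp1a1a.1 to atp1a1a.5, all on chromosome 1), which in the larval skin are used by different ionocytes. The copies are similar in sequence, and reads that match more than 1 of them may have been split or lost in counting. Summed over all 8 alpha genes, the level was 267 and 448 RPKM in SBS, against 1410, 1352 and 1189 RPKM in sham, and the groups did not overlap. Of these 8 genes, 1 fell, 0 rose, and 6 lay below sham in both SBS libraries (75.0%, against 24.3% of all genes). The likelihood ratio test called 1 higher and 2 lower, and DESeq2 and RUVg each called 1 higher and 3 lower. Of all genes, the likelihood ratio test called 9.81% higher and 5.78% lower, DESeq2 9.69% and 5.89%, and RUVg 7.76% and 5.88%. At an unadjusted p under 0.05 the shares of all genes were 15.7% higher and 13.1% lower. These shares are the background for every gene group and list here.

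The alpha gene that fell, atp1a1a.2 (ENSDARG00000007739), was at 0.327 and 0.136 CPM in SBS, against 7.25, 13.9 and 8.19 CPM in sham. The SBS libraries were both far under the lowest sham library. The log2 fold change was -5.43 (standard error 0.64, adjusted p = 0.0202, edgeR's quasi-likelihood test), resting on 17 reads in SBS and 1015 in sham. This copy made up little of the alpha transcripts in any library. The main copies were atp1a1a.1 (ENSDARG00000002791) and atp1a1a.4 (ENSDARG00000001870), which did not pass the test. The level of atp1a1a.1 was 820 and 713 CPM in SBS, against 2616, 1947 and 1727 CPM in sham, so that the SBS libraries were alike and the groups did not overlap (log2 fold change -1.45, standard error 0.39, adjusted p = 0.0871 by edgeR). That of atp1a1a.4 was 82.4 and 784 CPM in SBS, against 2128, 2544 and 2219 CPM in sham. Here both SBS libraries were low but far apart, which gave a log2 fold change of -2.41 with a standard error of 0.95 and an adjusted p of 0.166 by edgeR. For atp1a1a.4 it was -4.80 when SBS replicate 3 was left out and -1.55 when SBS replicate 1 was.

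The mix of alpha copies therefore differed between the SBS libraries. The share of atp1a1a.4 in the summed alpha level was 9.50% and 53.8% in SBS, against 46.5%, 57.9% and 57.5% in sham, and that of atp1a1a.1 was 87.8% and 45.4% in SBS, against 53.0%, 41.2% and 41.5% in sham. SBS replicate 3 had a mix within the sham range and SBS replicate 1 did not, and the groups did not separate (exact permutation test, two-sided p = 0.4 for both, where 0.2 is the smallest p that 3 against 2 libraries allow). The minor copies atp1a1a.3 and atp1a1a.5 were also below sham in both SBS libraries, with log2 fold changes of -2.23 and -2.27 (adjusted p = 0.130 and 0.223 by edgeR). In the other direction, atp1a3b, whose mammalian counterpart is the alpha isoform of neurons, was at 16.9 and 3.51 CPM in SBS, against 0.845, 1.07 and 2.79 CPM in sham (log2 fold change 2.70, standard error 0.82, adjusted p = 0.106 by edgeR). Each of the other tests (likelihood ratio, DESeq2, RUVg) called atp1a3b higher, and its log2 fold change was 1.16 without SBS replicate 1.

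The beta subunit atp1b1a (ENSDARG00000013144, chromosome 6) made up 97.6% and 99.0% of the summed beta level in SBS, against 99.5% to 99.7% in sham. Its level was 835 and 963 CPM in SBS, against 2089, 2374 and 2413 CPM in sham. Each group was tight and the groups were well apart, yet the gene missed both limits (log2 fold change -1.35, standard error 0.36, adjusted p = 0.0844 by edgeR). Of the 6 beta genes, 0 passed edgeR's quasi-likelihood test, the likelihood ratio test, DESeq2 or RUVg, and 1, atp1b1a, had an unadjusted p under 0.05. The 2nd in level, atp1b3b, was at 11.8 and 5.37 CPM in SBS, against 4.28, 3.29 and 5.25 CPM in sham. Of atp1b2b there were only 3 reads in SBS and 20 in sham, a ratio of 0.188 with an exact 95% interval of 0.0359 to 0.636 that covers counting error only. The fxyd genes, small proteins that modulate the pump, were measured as 2 of a list of 7, fxyd1 and fxyd6l. None was called by edgeR's quasi-likelihood test, the likelihood ratio test, DESeq2 or RUVg, 0 of 2 had an unadjusted p under 0.05, and fxyd1, the more abundant, was at 54.2 and 49.9 CPM in SBS, against 34.9, 41.2 and 52.4 CPM in sham.

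**Figure D2:**
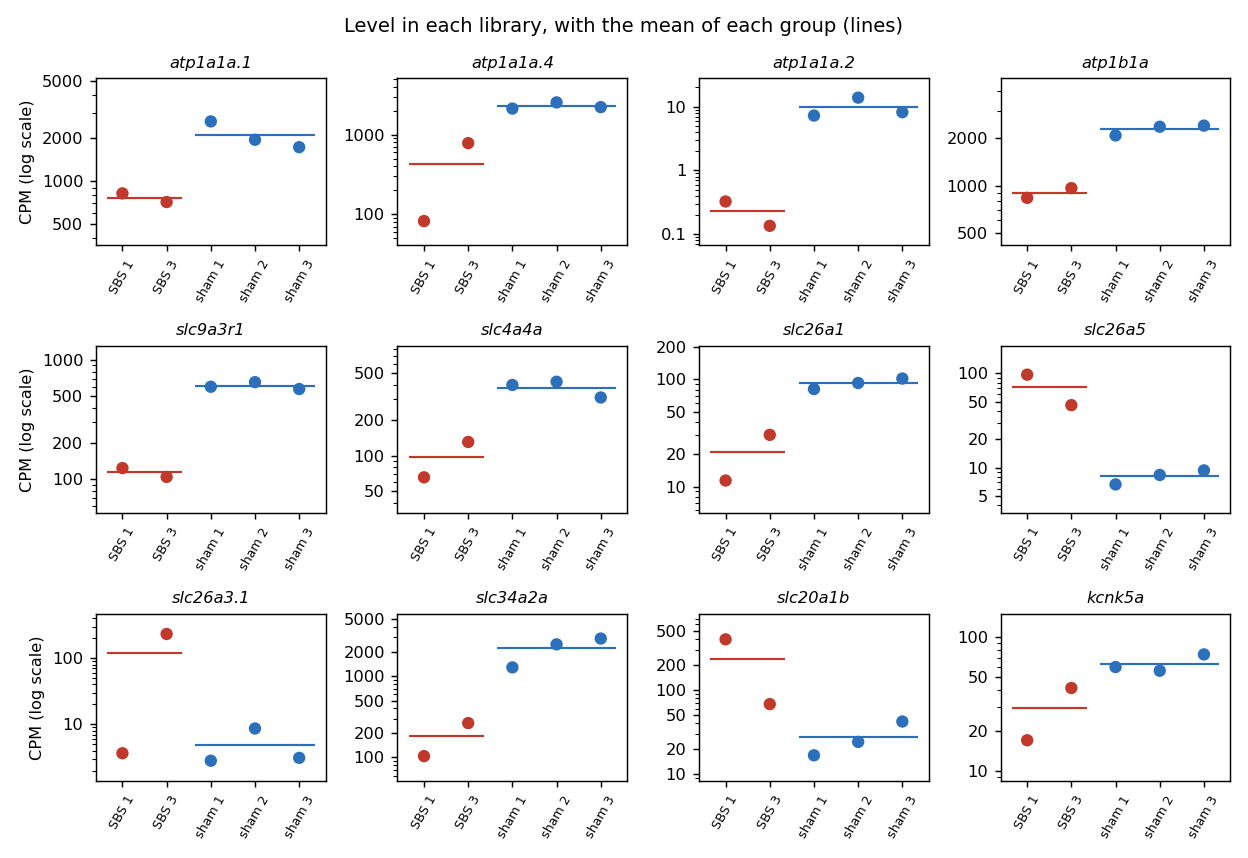
Level of 12 ion transport genes in each library, in CPM on a log scale that differs between panels, with SBS libraries (replicates 1 and 3) in red at the left, sham libraries in blue at the right and lines at the mean of each group. Both SBS points lie below all sham points for 9 of the panels and above them for slc26a5 and slc20a1b, while for slc26a3.1 only SBS replicate 3 lies above the sham points.

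The scaffold slc9a3r1 fell. It encodes the PDZ protein that in mammals tethers the sodium/proton exchanger NHE3, CFTR and phosphate transporters to ezrin under the apical membrane. Its transcript (ENSDARG00000000068, chromosome 12) was at 124 and 105 CPM in SBS, against 597, 653 and 571 CPM in sham. Both groups were tight, and the log2 fold change was -2.41 (standard error 0.32, adjusted p = 0.0246, edgeR's quasi-likelihood test). It stayed between -2.53 and -2.29 with any 1 library left out. Without sham replicate 1, 2 or 3 the adjusted p was 0.118, 0.0859 and 0.114 by edgeR, so that the call was lost. Of 11 tested genes of a list of apical scaffolds and secretory receptors and kinases, 2 fell and 0 rose. In both SBS libraries 7 of the 11 lay below sham (63.6%, against 24.3% of all genes). Those that fell were pdzk1, a scaffold of the same kind, at 245 and 336 CPM in SBS, against 2556, 1993 and 2508 CPM in sham (log2 fold change -3.02, adjusted p = 0.0253 by edgeR), and the membrane-cytoskeleton linker ezra (log2 fold change -1.95, adjusted p = 0.0343 by edgeR). The median log2 fold change of that list was -0.63.

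The exchangers that slc9a3r1 is known to hold were scarce. The apical sodium/proton exchanger gene slc9a3.1 was at 0.0654 and 1.34 CPM in SBS, against 5.01, 0.309 and 2.46 CPM in sham, and slc9a3.2 at 0.457 and 0.446 CPM in SBS, against 0.583, 0.225 and 0.150 CPM in sham. The groups overlapped for both genes, and the tandem copies may share reads. Summed over the 8 slc9 exchanger genes the level was 22.3 and 19.3 RPKM in SBS, against 25.4, 24.8 and 23.2 RPKM in sham. Most of this came from slc9a6a and slc9a8. The endosomal slc9a6a was at 17.0 and 24.5 CPM in SBS, against 46.8, 57.4 and 43.8 CPM in sham (log2 fold change -1.25, standard error 0.29, adjusted p = 0.0710 by edgeR). The exchanger slc9a8 was at 22.6 and 23.3 CPM in SBS, against 22.0, 15.1 and 18.8 CPM in sham, a log2 fold change of 0.30 with a standard error of 0.26. For slc9a7, a trans-Golgi exchanger, the level was 24.6 and 7.97 CPM in SBS, against 3.87, 5.99 and 6.24 CPM in sham (log2 fold change 1.60, adjusted p = 0.118 by edgeR, and 0.57 for the fold change without SBS replicate 1). None of the 8 was called by edgeR's quasi-likelihood test or RUVg, 1 higher and 1 lower had an unadjusted p under 0.05, and the likelihood ratio test and DESeq2 each called 1, slc9a7, higher.

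Among the bicarbonate transporters the sodium bicarbonate cotransporter slc4a4a, which in mammals loads bicarbonate across the basolateral membrane, was by far the most abundant. It was at 65.7 and 131 CPM in SBS, against 398, 424 and 312 CPM in sham. The groups were clearly apart, and the gene missed the threshold (log2 fold change -1.94, standard error 0.43, adjusted p = 0.0631 by edgeR). Summed over the 6 slc4 genes, the level was 25.4 and 30.3 RPKM in SBS, against 86.8, 91.9 and 68.8 RPKM in sham. The anion exchanger slc4a2b was at 35.1 and 4.46 CPM in SBS, against 3.50, 4.72 and 3.87 CPM in sham. Its log2 fold change of 2.29 (adjusted p = 0.129 by edgeR) was 0.15 without SBS replicate 1, the library that carried it. The red cell anion exchanger slc4a1a was at 4.77 and 2.89 CPM in SBS, against 2.18, 1.12 and 1.26 CPM in sham, and an erythrocyte list of 6 genes that includes it summed to 96.4 and 72.2 CPM in SBS, against 21.2 to 41.0 CPM in sham, with 1 gene called higher, the globin hbaa1. Without hbaa1 that list summed to 23.6 and 14.1 CPM in SBS, against 11.2 to 20.3 CPM in sham. None of the 6 slc4 genes was called by edgeR's quasi-likelihood test, although 2 were higher and 1 lower at an unadjusted p under 0.05, the likelihood ratio test and DESeq2 each called 1 higher and 1 lower, and RUVg called 1 lower. Genes of the carbonic anhydrase family, whose active enzymes supply bicarbonate, gave 0 calls among 9 genes with edgeR's quasi-likelihood test. Of these, 0 had an unadjusted p under 0.05. The likelihood ratio test called 1 higher, RUVg 1 lower and DESeq2 0. The most abundant of them per length, ca4b, was at 34.6 and 178 CPM in SBS, against 168, 121 and 90.0 CPM in sham.

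The one gene that rose, slc26a5, encodes prestin, known in mammals as the motor protein of outer hair cells and in zebrafish shown to work as an anion exchanger. Its transcript (ENSDARG00000022424, chromosome 4) was at 97.1 and 46.1 CPM in SBS, against 6.67, 8.40 and 9.39 CPM in sham. Each SBS library was well above the highest sham library, and the log2 fold change reached 3.13 (standard error 0.39, adjusted p = 0.0220, edgeR's quasi-likelihood test). With any 1 library left out it lay between 2.50 and 3.57. The call was lost when any 1 sham library was left out, with an adjusted p of up to 0.105 by edgeR. Over the family, 1 of 7 rose and 0 fell. In both SBS libraries 2 lay above and 2 below sham (28.6% each, against 22.6% and 24.3% of all genes).

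The sulfate and anion exchanger slc26a1 went the other way without passing the test, at 11.4 and 30.3 CPM in SBS, against 80.9, 92.2 and 101 CPM in sham (log2 fold change -2.13, standard error 0.48, adjusted p = 0.0656 by edgeR). It passed the threshold without SBS replicate 1 and without SBS replicate 3. The genes slc26a3.1 (ENSDARG00000007371) and slc26a3.2 (ENSDARG00000003615), neighbouring copies on chromosome 4 of the chloride/bicarbonate exchanger lost in human congenital chloride diarrhoea, may share reads. Of the copies, slc26a3.2 was the main one in sham, and its level was 146 and 361 CPM in SBS, against 408, 383 and 375 CPM in sham (log2 fold change -0.62, standard error 0.45, adjusted p = 0.408 by edgeR). The other copy, slc26a3.1, was at 3.66 and 231 CPM in SBS, against 2.83, 8.66 and 3.12 CPM in sham. Only SBS replicate 3 was high, and SBS replicate 1 lay within the sham range. The log2 fold change was fitted at 4.59 (standard error 1.5, adjusted p = 0.117 by edgeR) and was -0.41 without SBS replicate 3 and 5.57 without SBS replicate 1. The likelihood ratio test, DESeq2 and RUVg each called slc26a3.1 higher, in fits where this single library sets the value. Its share of the pair was 2.92% and 43.4% in SBS, against 0.823%, 2.64% and 0.988% in sham (exact permutation test, two-sided p = 0.2, the smallest possible).

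The chloride channel gene cftr was at 13.5 and 15.5 CPM in SBS, against 23.4, 18.6 and 18.7 CPM in sham. After TMM scaling the groups did not overlap, but the gene missed the threshold (log2 fold change -0.48, standard error 0.26, adjusted p = 0.270 by edgeR). This small separation depends on the scaling between libraries. The secretory sodium-potassium-chloride cotransporter slc12a2, which loads chloride for CFTR, was at 13.2 and 9.52 CPM in SBS, against 9.67, 7.36 and 10.4 CPM in sham, and the groups overlapped. The thiazide-sensitive cotransporter slc12a3 resembled slc26a3.1, with 1.5 and 33.8 CPM in SBS, against 1.34, 5.23 and 1.11 CPM in sham. Again only SBS replicate 3 was high. A kidney list that holds slc12a3 summed to 53.8 and 153 CPM in SBS, against 104 to 113 CPM in sham. Of its 5 genes, 0 passed edgeR's quasi-likelihood test and 1 had an unadjusted p under 0.05. The likelihood ratio test and RUVg each called 1, for RUVg slc12a3 itself, and DESeq2 called 0. Most of the sum was hnf1ba, at 50.4 and 109 CPM in SBS, against 95.3, 107 and 102 CPM in sham. The sum thus rests on hnf1ba and slc12a3 itself, and the part of kidney tissue in the slc12a3 values was not tested. The orphan carrier slc12a9 was at 18.2 and 6.65 CPM in SBS, against 4.34, 5.59 and 4.86 CPM in sham (log2 fold change 1.33, adjusted p = 0.133 by edgeR, and 0.43 for the fold change without SBS replicate 1), and slc12a8, at 9.08 and 11.7 CPM in SBS, against 10.8 to 13.8 CPM in sham, was the most abundant of the family per length. None of the 4 slc12 genes was called by edgeR's quasi-likelihood test, the likelihood ratio test or DESeq2, 1 had an unadjusted p under 0.05, slc12a9, and RUVg called slc12a3 higher.

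Of the 3 ClC genes, clcn2b, a plasma membrane chloride channel, was at 23.4 and 17.4 CPM in SBS, against 64.7, 36.8 and 38.7 CPM in sham (log2 fold change -1.20, standard error 0.36, adjusted p = 0.105 by edgeR). The lysosomal exchanger clcn7 was at 69.4 and 23.7 CPM in SBS, against 21.2, 28.1 and 20.4 CPM in sham, and without SBS replicate 1 its log2 fold change of 1.00 was 0.03. None of the 3 was called by edgeR's quasi-likelihood test, the likelihood ratio test, DESeq2 or RUVg, and 1, clcn2b, had an unadjusted p under 0.05. In a list of 16 other chloride channel genes, 1 fell, clic4, at 52.4 and 40.5 CPM in SBS, against 141, 144 and 115 CPM in sham (log2 fold change -1.52, adjusted p = 0.0459 by edgeR). The median of that list was 0.93, with 5 genes higher and 2 lower at an unadjusted p under 0.05. In both SBS libraries 7 lay above and 2 below sham (43.8% and 12.5%, against 22.6% and 24.3% of all genes). DESeq2 called 4 of them higher and 1 lower, the likelihood ratio test 4 and 2, and RUVg 1 and 2. The gene clca1, a secreted protein known to modulate chloride channels and the highest of that list per length, varied widely, at 55.1 and 567 CPM in SBS, against 3675, 323 and 839 CPM in sham. The kinases and partners that regulate slc12 carriers (WNK-SPAK pathway and sgk genes, 12 tested) gave 0 calls with edgeR's quasi-likelihood test, 2 with an unadjusted p under 0.05, both higher, and 1 higher with each of the likelihood ratio test, DESeq2 and RUVg. The highest of them per length, sgk1, was at 401 and 154 CPM in SBS, against 154, 326 and 207 CPM in sham.

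Vacuolar proton pump subunits, which acidify the lysosome in which clcn7 works, gave 0 calls among 20 genes with edgeR's quasi-likelihood test and RUVg and 5 higher with each of the likelihood ratio test and DESeq2. At an unadjusted p under 0.05, 10 were higher and 0 lower, where 15.7% and 13.1% of all genes were. In both SBS libraries 9 lay above and 1 below sham (45.0% and 5.0%, against 22.6% and 24.3% of all genes). Their median log2 fold change was 1.26. The highest of them per length, atp6v1g1, was at 440 and 112 CPM in SBS, against 73.2, 100.2 and 70.8 CPM in sham. Their summed level was 4648 and 1403 CPM in SBS, against 1207, 1416 and 1053 CPM in sham, so that SBS replicate 1 stood apart and SBS replicate 3 lay within the sham range. The macrophage list, whose cells are rich in lysosomes, had a median log2 ratio to the sham mean of 2.97 in the first of these libraries and 0.75 in the other, and its part in these values was not tested.

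The apical sodium-phosphate cotransporter slc34a2a (ENSDARG00000012903, chromosome 1), which takes up dietary phosphate, fell. It was at 104 and 265 CPM in SBS, against 1278, 2452 and 2890 CPM in sham. Both SBS libraries were several-fold under the lowest sham library, and the log2 fold change was -3.58 (standard error 0.68, adjusted p = 0.0459, edgeR's quasi-likelihood test). The call sits close to the threshold: without SBS replicate 1 the log2 fold change was -3.06 and the adjusted p 0.0823. The paralog slc34a2b (chromosome 23) was at 148 and 74.4 CPM in SBS, against 309, 96.3 and 482 CPM in sham, and the groups overlapped. In SBS replicate 1 slc34a2b was thus the more abundant of the pair, since slc34a2a made up 35.5% and 73.6% of their summed RPKM in SBS, against 76.5%, 95.2% and 82.5% in sham (exact permutation test, two-sided p = 0.2, the smallest possible).

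An antisense transcript of the locus, slc34a2aas, had 4 reads in SBS and 37 in sham (log2 fold change -2.76, adjusted p = 0.105 by edgeR). The library kit keeps strand, but the strand setting of the counting is not given in the sources used here, and without strand its reads could not be told apart from those of slc34a2a. The housekeeping phosphate transporter slc20a1b (ENSDARG00000010641, chromosome 10), which in mammals is found in most cells, was at 399 and 67.8 CPM in SBS, against 16.7, 24.1 and 42.0 CPM in sham. Both SBS libraries were above sham but several-fold apart from each other, and the gene missed the threshold (log2 fold change 3.08, standard error 0.79, adjusted p = 0.0809 by edgeR). It was called higher by the likelihood ratio test, DESeq2 and RUVg. Without SBS replicate 1 the log2 fold change was 1.30. Of the 6 slc20 and slc34 genes, the quasi-likelihood test called 0 higher and 1 lower (2 and 2 at an unadjusted p under 0.05), DESeq2 1 and 1, and the likelihood ratio test and RUVg each 1 and 2. Of these genes, slc34a2aas, called lower by the likelihood ratio test and RUVg, had passed the minimum of 10 reads through sham only. The share of slc20a1b in the summed phosphate cotransporter RPKM was 46.3% and 11.1% in SBS, against 0.680%, 0.639% and 0.819% in sham (exact permutation test, two-sided p = 0.2, the smallest possible). Summed over the 6 genes, the level was 227 and 160 RPKM in SBS, against 646, 993 and 1354 RPKM in sham.

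**Figure D3:**
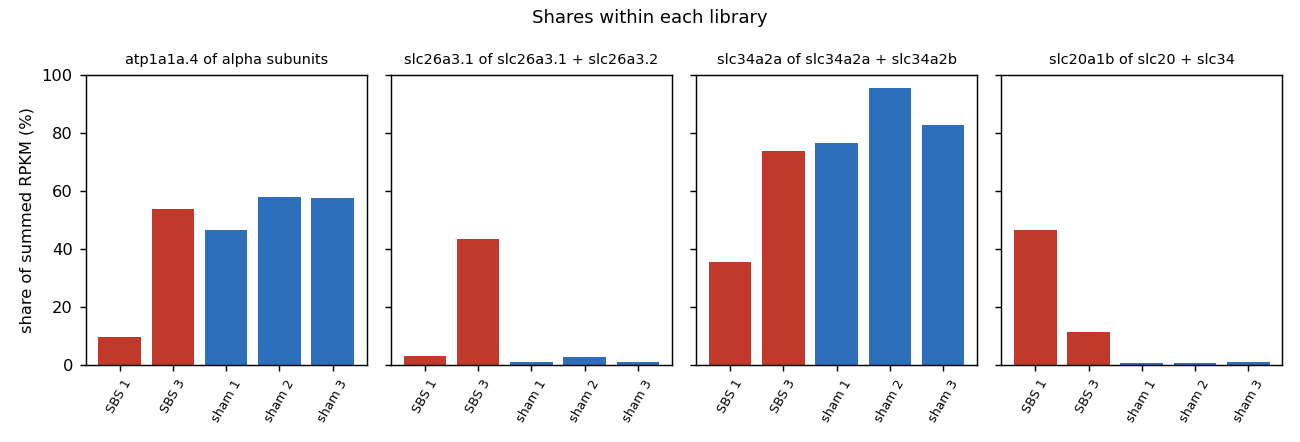
Share in each library, in percent of summed RPKM, of atp1a1a.4 among alpha subunits, slc26a3.1 among the slc26a3 pair, slc34a2a among the slc34a2 pair and slc20a1b among the slc20 and slc34 genes, with one bar per library, SBS (red) left and sham (blue) right. The atp1a1a.4 share is low in SBS replicate 1 alone (9.50%), the slc26a3.1 share is high in SBS replicate 3 alone (43.4%), and the slc20a1b share is 46.3% and 11.1% in SBS while under 1% in sham.

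Sodium/calcium exchangers (slc8) were low in all libraries, 0 of 5 being called by edgeR's quasi-likelihood test, the likelihood ratio test, DESeq2 or RUVg, with 1 higher and 1 lower at an unadjusted p under 0.05. The more abundant slc8a1a, the exchanger of heart and smooth muscle, was at 1.83 and 4.77 CPM in SBS, against 10.8, 5.82 and 9.27 CPM in sham. For slc8a2a the levels were 2.94 and 1.16 CPM in SBS, against 0.0583, 0.141 and 0.75 CPM in sham (log2 fold change 2.69, adjusted p = 0.169 by edgeR). A smooth muscle list summed to 1014 and 4623 CPM in SBS, against 2797 to 6425 CPM in sham. Of 18 other calcium transport genes, 1 fell, the plasma membrane calcium pump atp2b1a, at 26.7 and 44.0 CPM in SBS, against 187, 274 and 267 CPM in sham (log2 fold change -2.78, adjusted p = 0.0266 by edgeR). Its paralog atp2b1b was at 65.4 and 33.0 CPM in SBS, against 5.33, 15.96 and 5.1 CPM in sham (log2 fold change 2.48, adjusted p = 0.0770 by edgeR). At an unadjusted p under 0.05, 3 genes of the list were higher and 3 lower. The likelihood ratio test and DESeq2 each called 2 higher and 1 lower, and RUVg 1 and 1. The most abundant of that list per length, the sarcoplasmic reticulum pump atp2a2b, was at 144 and 152 CPM in SBS, against 214, 207 and 230 CPM in sham.

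Of 32 potassium channel (kcn) genes, 31 were tested, and 0 were called by edgeR's quasi-likelihood test. At an unadjusted p under 0.05, 2 were higher and 6 lower, where 15.7% and 13.1% of all genes were. The likelihood ratio test called 0 higher and 3 lower, DESeq2 1 and 2, and RUVg 1 and 4. The median log2 fold change of the 31 genes was -0.38. In both SBS libraries 2 of them lay above sham and 9 below. These shares were 6.45% and 29.0%, where 22.6% and 24.3% of all genes did so. Among those below, kcnmb2 and kcnab2b passed the minimum number of reads through sham only. That minimum favours a place below sham for such genes, so the share below cannot show an excess. RUVg called both of these genes lower, and the likelihood ratio test called kcnmb2. The gene that dominated the family in level, kcnk5a, encodes a 2-pore-domain channel (TASK-2 in mammals) of epithelia. It was at 17.0 and 41.7 CPM in SBS, against 59.7, 56.1 and 74.2 CPM in sham (log2 fold change -1.11, standard error 0.44, adjusted p = 0.164 by edgeR). Its share of the summed potassium channel RPKM was 22.9% and 42.0% in SBS, against 51.4%, 58.1% and 54.1% in sham (exact permutation test, two-sided p = 0.2, the smallest possible).

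The copies of another 2-pore-domain channel (TWIK-1 in mammals) went in opposite directions without passing the test. The level of kcnk1a was 3.92 and 11.3 CPM in SBS, against 2.04, 3.4 and 1.44 CPM in sham (log2 fold change 1.74, adjusted p = 0.129 by edgeR). That of kcnk1b was 1.76 and 1.55 CPM in SBS, against 9.47, 4.72 and 4.80 CPM in sham (log2 fold change -1.93, adjusted p = 0.0760 by edgeR). DESeq2 and RUVg called both of them, each in its own direction, whereas the likelihood ratio test called kcnk1b. Another of the family, kcnk6 (TWIK-2 in mammals), was at 32.5 and 13.2 CPM in SBS, against 10.6, 9.64 and 11.9 CPM in sham.

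The voltage-gated kcnd3, an A-type channel of heart and nerve, was at 0.457 and 0.601 CPM in SBS, against 2.97, 1.80 and 2.82 CPM in sham. With 45 reads in SBS and 260 in sham, its log2 fold change was -2.24 (standard error 0.51, adjusted p = 0.0669 by edgeR), and the likelihood ratio test, DESeq2 and RUVg called it lower. The small-conductance channel kcnn1a and the accessory subunit kcnab1a had log2 fold changes of -2.07 and -1.87 (adjusted p = 0.152 and 0.140 by edgeR). The accessory subunit of the large-conductance channel, kcnmb2, had 0 reads in SBS and 19 in sham, and with a floor of 3 reads set over the SBS group, sham was at least 5.04-fold higher. Among the 6 inward rectifiers none was called by edgeR's quasi-likelihood test, the likelihood ratio test, DESeq2 or RUVg, 0 had an unadjusted p under 0.05, and the groups overlapped for all 6. The most abundant was kcnj8, a channel of vascular muscle, at 7.38 and 2.50 CPM in SBS, against 2.36, 2.45 and 3.21 CPM in sham. A list of neuron and glia markers, 14 genes, gave 0 calls with edgeR's quasi-likelihood test (1 higher and 1 lower at an unadjusted p under 0.05, and 1 higher with each other test) and summed to 19.7 and 28.8 CPM in SBS, against 12.6 to 35.7 CPM in sham.

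Of the 86 genes, 8 passed the minimum of 10 reads through 1 group only: atp1b2b, slc34a2aas, kcnc1b, kcnab2b and kcnmb2 through sham, and slc9a2, slc26a6l and kcnd1 through SBS. The gene not tested, kcnh4a, had 7 reads in SBS and 1 in sham, a ratio of 8.80 with an exact 95% interval of 1.13 to 396. The ratio was 0.132 (0.0149 to 0.548) for kcnab2b and 12.6 (1.79 to 545) for kcnd1. SBS replicate 1 held 6 of the 7 kcnh4a reads and all 10 kcnd1 reads, and every count of that library is even. If its reads were counted more than once, these intervals are too narrow and may include a ratio of 1, which was not tested. Transcripts of slc26a6, kcnq1.1 and kcne1 were not analysed here.

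The SBS libraries differed from each other more over these genes than over genes at large. The median size of the difference between SBS replicates 1 and 3 was 1.04 on the log2 scale over the ion transport genes and 0.676 over all genes, and the median spread between sham libraries was 0.479 and 0.301 (SD of log2 CPM, n = 3). These genes also include many of low level, and no test of the difference was made. Enterocyte markers had a median log2 ratio to the sham mean of -2.73 in the first and -1.38 in the third SBS replicate, so that the library with the lower atp1a1a.4, slc26a1, slc34a2a, slc4a4a and kcnk5a also had the lower enterocyte markers, and it had the higher hepatocyte markers. The libraries were alike for slc9a3r1, atp1a1a.1, atp1b1a and kcnk1b. Other genes with a lower mean in SBS went the other way, among them slc34a2b, clcn2b, atp1a1a.2, atp1a1a.3 and slc4a11. In SBS replicates 1 and 3, slc34a2b was at 148 and 74.4 CPM and clcn2b at 23.4 and 17.4 CPM. In the same order, atp1a1a.2 was at 0.327 and 0.136 CPM, which rests on only 10 and 7 reads, and atp1a1a.3 at 2.94 and 0.776 CPM. For slc4a11 the levels were 1.37 and 0.950 CPM. A link of these genes with the enterocyte markers was not tested.

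**Figure D4:**
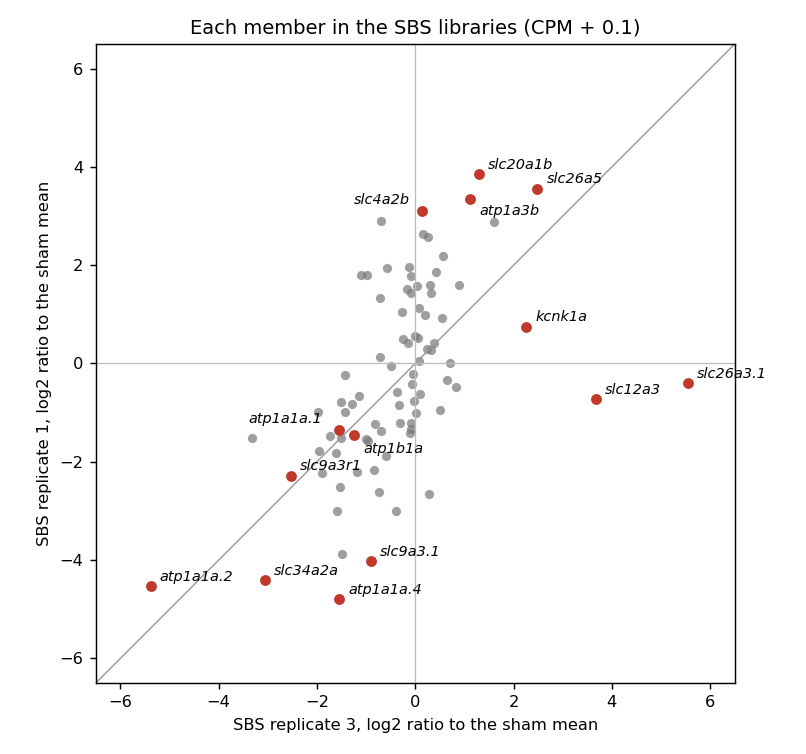
Each tested ion transport gene as a point, with the log2 ratio of SBS replicate 3 to the sham mean on the horizontal axis and that of SBS replicate 1 on the vertical axis (CPM + 0.1), and a line where both are equal. Named genes are in red: slc9a3r1, atp1a1a.1 and atp1b1a lie on or near the line, atp1a1a.4 and slc9a3.1 lie below it, slc20a1b, atp1a3b and slc4a2b above it, and slc26a3.1 and slc12a3 are high in SBS replicate 3 alone.

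Since the enterocyte markers were lower in SBS, the abundant genes were also set against villin (vil1), a structural protein of the brush border, in the same library, a ratio that needs no scaling between libraries and was chosen after the values were seen. The level of vil1 was 554 and 1416 CPM in SBS, against 3414, 3788 and 2919 CPM in sham. Of the 86 ion transport genes, 49 lay above and 5 below sham per vil1 (57.0% and 5.81%), where 77.6% and 1.84% of all genes did so. Of the 11 abundant genes that lay below sham in CPM, 3 also lay below per vil1, 5 overlapped and 3 lay above. Those below were slc34a2a, with 0.188 and 0.187 in SBS, against 0.374, 0.647 and 0.990 in sham, atp1a1a.4, with 0.149 and 0.554 in SBS, against 0.623, 0.672 and 0.760 in sham, and slc26a1. Those above were slc26a3.2, with 0.263 and 0.255 in SBS, against 0.119, 0.101 and 0.128 in sham, kcnk5a and slc9a6a. Those that overlapped were atp1a1a.1, atp1b1a, slc9a3r1, slc4a4a and clcn2b. For slc9a3r1 the ratio was 0.225 and 0.0740 in SBS, against 0.175, 0.172 and 0.196 in sham, and for slc4a4a it was 0.119 and 0.0925 in SBS, against 0.117, 0.112 and 0.107 in sham. The ratio of slc26a5 was 0.175 and 0.0326 in SBS, against 0.00195, 0.00222 and 0.00322 in sham, and those of atp1a1a.2 and kcnmb2 were the other 2 that lay below sham. Of these 2, kcnmb2 had 0 reads in SBS and passed the minimum number of reads through sham only. The 8 enterocyte markers had log2 fold changes from -3.83 to -0.92, with vil1 at -1.78. The lowest was fabp2, at 331 and 1262 CPM in SBS, against 12166, 11124 and 10627 CPM in sham. Which genes lie below sham therefore depends on the marker chosen, and a fall beyond that of enterocyte transcripts was not tested. No test was made on the ratios to vil1.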

How the data were processed

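Raw counts per gene were deposited by the authors in 1 table of 12488 rows, made, per the study's methods, with FastQC, Trimmomatic, STAR and HTSeq-count from libraries with ERCC spike-ins (the kit is stranded, per the labels). The methods name the build danRer7 and the submitters' processing notes name GRCz10 (danRer10), so no coordinates are given, and versions and the strand setting are not given in the sources used here. The counts are not normalized. The table also holds 6 columns of RPKM and 5 of the authors' own comparisons (fold changes and p-values), none used. After leaving out 70 spike-in rows and 20 repeated rows, 12398 genes remained. Gene length is the deposited column.

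Genes with at least 10 counts summed over the 5 distinct libraries (12381) were scaled with TMM. They were tested with edgeR 4.0.16 (R 4.3.3, limma 3.58.1), by quasi-likelihood F-test, with Benjamini-Hochberg adjustment over all of them. The TMM factors were 1.50 and 1.33 in SBS, against 0.773, 0.919 and 0.707 in sham. CPM in SBS are therefore lower against sham than counts over unscaled library totals. Alternatives were DESeq2 1.42.0, the likelihood ratio test, RUVg with 1 factor (the 5000 genes of smallest p were left out of the controls), size factors, upper-quartile factors, filterByExpr, no filter beyond 1 count, no fold limit, the replicate number as a block and leaving out each library. All 6 columns, and the counts of SBS replicate 1 divided by 2, were added after seeing the data. Named genes are the called genes, those with a log2 fold change past 1.5 in size, unadjusted p under 0.05 and no overlap, the 2 of highest RPKM in each of 16 role groups, and a fixed list. The members, marker lists and pathway lists were chosen with earlier results of these data known. Nothing says that libraries share a litter or day, and p-values measure the spread between these fish. Reads carry no molecular identifiers, so intervals and floors cover counting error only. They take each count of SBS replicate 1, all of which are even, as that many independent reads. Of 224 RefSeq protein-coding symbols that the gene name rule would match, 83 are in the table. The others were not analysed here.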

Additional observations from a re-analysis of the deposited data

How the results depend on the processing

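All 4 called ion transport genes (slc26a5, atp1a1a.2, slc9a3r1, slc34a2a) stayed called, with the same direction, under size factors, upper-quartile factors, filterByExpr, no filter beyond 1 count, no fold limit, the likelihood ratio test, DESeq2, RUVg, all 6 columns and halved SBS replicate 1 counts, and lost their calls with the replicate block and without any sham library. Over all genes, 563 were called, against 1931 with the likelihood ratio test, 1891 with DESeq2, 1689 with RUVg and 1936 with all 6 columns. Ion transport genes called higher were 6, 7, 6 and 6 in these fits, and lower 10, 9, 12 and 11. The all-6-column value counts 1 sample as 2. Leaving out 1 library gave 0 to 2330 genes, 0 to 9 ion transport genes higher and 0 to 12 lower. The highest counts were without SBS replicate 3 (9 higher, 12 lower, where 10.5% and 8.35% of all genes were called), and those of 0 without any sham replicate, when 2214, 2660 and 2442 genes had an unadjusted p under 0.05. When SBS replicate 1 was left out, slc34a2a lost its call and slc26a1 and slc26a3.1 gained one (2 higher, 3 lower). With 1 SBS library left, its spread is taken from the sham group.

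Deviations of same-numbered libraries correlated at -0.114 and -0.120. These values cannot decide whether the replicate numbers pair the fish. The true replicate number of the shared SBS counts is not known, and the SBS libraries are too few to make these values separate checks. With the replicate number as a block, 0 genes were called by edgeR, 0 ion transport genes higher and 0 lower, 14 of these having an unadjusted p under 0.05. Of the log2 fold changes of named genes, 11 changed sign: kcnj2a, main value 0.16, was -0.028 with RUVg and -0.11 with the block, kcne4, 0.06, was -0.061 with the block, and, with 1 library left out, values ranged from -0.41 to 5.57 for slc26a3.1, -0.16 to 0.90 for kcnj2a, -0.094 to 1.47 for kcnj8, -1.04 to 0.0090 for kcnh6a, -0.80 to 0.27 for kcnma1a and -0.15 to 0.69 for kcne4. The cause was not tested. Of the other values, 658 kept their direction and their side of the threshold, 64 passed it and 17 lost it. Size factors moved the median of all genes by 0.053 and upper-quartile factors by 0.047. For the genes with few reads (kcnmb2, kcnab2b, atp1b2b, kcnd1), depth limits the precision, and DESeq2 gave no adjusted p for these 4.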

Other observations

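The remaining marker lists gave these values. Exocrine pancreas genes, 8 tested, gave 0 calls with edgeR's quasi-likelihood test, the likelihood ratio test, DESeq2 and RUVg (0 with an unadjusted p under 0.05 by edgeR's quasi-likelihood test), at 2130 and 6571 summed CPM in SBS, against 10876, 1246 and 33673 CPM in sham. The sham libraries thus differ widely in pancreatic transcripts, with sham replicate 2 low. Ionocyte genes, 4 tested and 0 called by edgeR's quasi-likelihood test or RUVg, were 3 higher at an unadjusted p under 0.05 and 3 higher with the likelihood ratio test and DESeq2, with sums of 337 and 63.4 CPM in SBS, against 37.2 to 49.1 CPM in sham. Nearly all of these sums was atp6v1aa, a proton pump subunit, and the other 3 genes summed to 23.5 and 0.95 CPM in SBS, against 0.815 to 0.99 CPM in sham. Goblet and enteroendocrine genes, 4 tested, summed to 263 and 344 CPM in SBS, against 89.3 to 144 CPM in sham. By edgeR's quasi-likelihood test 0 were called and 1 was higher at an unadjusted p under 0.05, and each other test called 1 higher. Most of these sums was agr2, at 178 and 321 CPM in SBS, against 58.8, 128 and 68.5 CPM in sham. For the other 3 genes the groups overlapped. Macrophage genes, 7 tested, summed to 2575 and 2347 CPM in SBS, against 1005 to 2833 CPM in sham. Most of these sums was cd74a, at 1466 and 2091 CPM in SBS, against 888, 1282 and 2637 CPM in sham. Of the 7 macrophage genes, 5 lay above sham in both SBS libraries (71.4%, against 22.6% of all genes). For 2, cd74a among them, the groups overlapped. By edgeR's quasi-likelihood test 0 were called and 5 were higher at an unadjusted p under 0.05. The likelihood ratio test, DESeq2 and RUVg called 4, 5 and 3 higher. Of 5 skeletal muscle genes, edgeR's quasi-likelihood test called 2 higher, mylpfa and tnnt3b. With 0 or 1 read in each sham library, both passed the minimum number of reads through SBS only. The likelihood ratio test called 3 higher and 0 lower, DESeq2 3 and 1, and RUVg 4 and 1. The sums overlapped, at 3.53 and 25.4 CPM in SBS, against 16.6 to 35.9 CPM in sham. In both SBS libraries 3 genes lay above sham and 1 below. The latter, acta1b, was at 0.784 and 9.52 CPM, against 15.7 to 34.2 CPM in sham. Lymphocyte genes were 0 called of 5 by edgeR's quasi-likelihood test (1 lower at an unadjusted p under 0.05 and with each other test). Smooth muscle genes were 0 of 7 (1 lower at an unadjusted p under 0.05, and 1, 1 and 2 lower with the likelihood ratio test, DESeq2 and RUVg). Gonad genes were 0 of 3 (1 lower at an unadjusted p under 0.05 and with the likelihood ratio test, 0 with DESeq2 and RUVg).

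The share of spike-in reads was 1.72% and 2.43% in SBS, against 0.663% to 0.81% in sham.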
